A study of Mus musculus with 11 samples.

Results

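Voltage-gated calcium and sodium channel subunits were described in bulk RNA-seq of pancreatic islets from female wild-type C57BL/6J mice. With earlier results of these data known, the members were defined by gene symbol. They were all genes of families Cacna1, Cacna2d, Cacnb and Cacng and of sodium channel families named Scn with a number and a or b. This gave 40 of the 55536 genes in each table, with 10 Cacna1, 4 Cacna2d, 4 Cacnb, 8 Cacng, 10 Scn α and 4 Scn β genes. Mice entered the experiment at 9 weeks of age, and the multipara group went through 3 pregnancies and was studied 3 weeks after the last delivery, with age-matched virgin littermates as controls. S-961, a peptide that blocks the insulin receptor, was given to the treated mice for 3 days, with 2 injections of 100 nmol/kg each day. No injection of the other mice is described in the sources used here. The 11 libraries were 3 virgin and 4 multipara libraries with S-961 and 2 virgin and 2 multipara libraries without it. The S-961 groups may thus differ from the untreated ones by the injections as well as by the peptide. No group carried a transgene or deletion, and an islet library holds all cell types of the islet and what is attached to it.

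Voltage-gated calcium channels open when the membrane depolarises. In the β cell, glucose metabolism closes the K-ATP channel, the membrane depolarises, and calcium entry through these channels triggers the fusion of insulin granules. A channel is built from a pore subunit (Cacna1 genes), a cytosolic β subunit (Cacnb genes) that brings the pore to the membrane, and an extracellular α2δ subunit (Cacna2d genes) that raises its density there. The γ family (Cacng genes) includes muscle channel subunits and the TARP proteins, which are best known as partners of AMPA-type glutamate receptors. Sodium channels consist of 1 pore subunit (Scn α genes) with β subunits (Scn β genes) that tune gating and adhesion. They carry the fast upstroke of action potentials in neurons and are also found in islet endocrine cells.

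Total counts per library ran from 22028507 to 32234146. *Ins1* and *Ins2* together took 35.3 to 41.4% of the counts in untreated libraries and 13.2 to 20.7% in S-961 libraries. The library labelled multipara S-961 4 stood apart from its group, since its summed level of 8 proliferation genes was 13.3 CPM (counts scaled to library size), against 317.4, 293.3 and 141.9 in multipara S-961 1 to 3 and 11.6 to 30.7 in the virgin S-961 libraries. It also lay with the virgin S-961 libraries on the leading principal components, so that counts and parity results that rest on it are given with and without it. No gene that follows parity was examined here to check the parity labels. The study names *Lrrc55* and *Matn2* as higher in multiparous islets, and their levels were not looked at. The study describes gene sets of voltage-gated cation channels as higher, and cell cycle genes as lower, in S-961-treated multiparous than virgin islets. Here the libraries labelled multipara S-961 1 to 3 had the higher levels of proliferation genes. Every sign between parity groups under S-961, that of the interaction included, thus rests on labels that are in doubt. So does the assignment of changes with S-961 to virgin or to multipara islets below, and no alternative fit varied the labels. Acinar markers summed to 75.9 to 158.0 CPM in untreated and 1727.4 to 12241.0 CPM in S-961 libraries, and 11 of 12 passed the test as higher with S-961 in each parity group. α cell markers, 6 genes, summed to 50507.7 to 57261.1 CPM in virgin untreated, 26323.2 to 38835.6 in multipara untreated, 14159.3 to 15648.1 in virgin S-961 and 16421.8 to 24365.9 in multipara S-961 libraries. Of 6 skeletal muscle markers, 3 or 4 were at 0 in every library. In bulk samples, fewer cells of a type and less RNA per cell cannot be told apart. The labels do not number the animals. The study describes the S-961 libraries as islets of as many mice, nothing used here says so for the untreated ones, and p-values measure the spread between these samples, which may be technical in part.

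Transcript levels were compared between genes as CPM per kb of exon length, the union of all annotated exons. This length can exceed that of the transcript expressed, so the order between genes depends on it. *Cacna1c* and *Cacna1a* had means of 45.9 and 50.7 CPM over exon lengths of 21.191 and 11.418 kb. Among pore subunits of calcium channels, *Cacna1d*, an L-type channel of β cells, was highest at a mean of 6.72 CPM per kb over the 11 libraries (range 4.81 to 9.61). *Cacna1a*, the P/Q-type pore, followed at 4.44 (2.94 to 7.38), *Cacna1c*, the other islet L-type pore, at 2.16 (1.34 to 3.51), the N-type pore *Cacna1b* at 1.12 (0.78 to 1.55) and the T-type pore *Cacna1h* at 0.69 (0.35 to 1.08) CPM per kb. Each of these 5 was above the next in 11 of 11 libraries. The T-type pores *Cacna1g* and *Cacna1i* had 0.17 and 0.16 CPM per kb and did not keep one order, with *Cacna1g* above in 7 of 11 libraries. *Cacna1e*, the R-type pore, was lowest of the 8 described singly, at 0.05 CPM per kb.

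Among calcium channel accessory subunits 1 gene led each family in 11 of 11 libraries. *Cacna2d1* was at 8.88 CPM per kb (5.62 to 13.0) and *Cacna2d2* at 0.58, while *Cacna2d3* at 0.18 and *Cacna2d4* at 0.15 changed places, *Cacna2d3* being above in 8 of 11. *Cacnb3* had the highest level per length of any member, 11.4 CPM per kb (6.79 to 16.3), with *Cacnb1* at 2.44 and *Cacnb2* at 1.92. *Cacng4* was at 2.35 CPM per kb and *Cacng7* at 0.57. The sodium channel pores *Scn9a*, *Scn3a* and *Scn8a* had means of 2.08, 1.76 and 1.48 CPM per kb, and their order changed between libraries, with *Scn9a* above *Scn3a* in 8 and *Scn3a* above *Scn8a* in 6 of 11. Among sodium channel β subunits, *Scn3b* was at 1.28 and *Scn2b* at 0.41 CPM per kb.

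**Figure D1:**
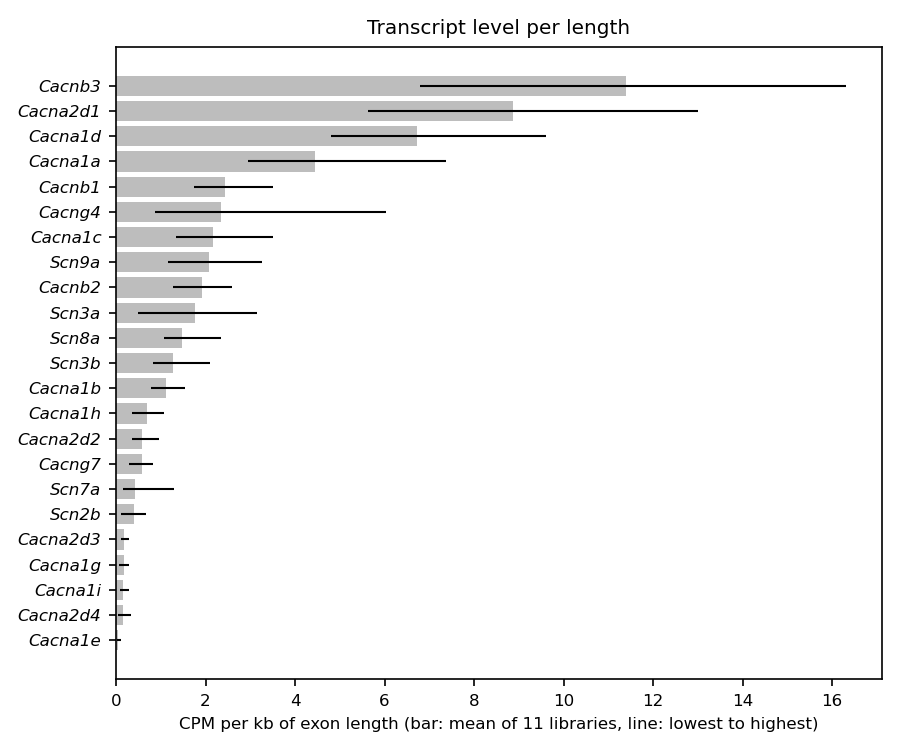
Mean level per length of the 23 members drawn with a mean of at least 1 CPM. Bars give CPM per kb of exon length over 11 libraries and lines run from the lowest to the highest library. *Cacnb3* (11.4), *Cacna2d1* (8.88), *Cacna1d* (6.72) and *Cacna1a* (4.44) lead, and *Cacna1e* (0.05) is lowest.

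The 16 members with a mean under 1 CPM were near the limit of detection. *Scn10a*, a sodium channel of sensory neurons, had a count of 0 in 11 of 11 libraries, which allows up to 3 counts per library. *Cacna1s*, the skeletal muscle L-type pore, ran from 0 to 1.52 CPM with 5 libraries at 0, and *Cacna1f*, the retinal L-type pore, from 0.28 to 1.3 CPM. *Cacnb4* ran from 0.34 to 1.34 CPM. The γ genes *Cacng1*, *Cacng2*, *Cacng3*, *Cacng5*, *Cacng6* and *Cacng8* did not exceed 0.6 CPM, the highest value of *Cacng2*. Among sodium channels, the brain genes *Scn1a* and *Scn2a* reached 0.58 and 1.36 CPM, the muscle gene *Scn4a* 0.71, the sensory neuron gene *Scn11a* 0.73 and the β subunit *Scn4b* 1.25 CPM. None of the 16 passed the test in any comparison of the main fits.

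**Figure D2:**
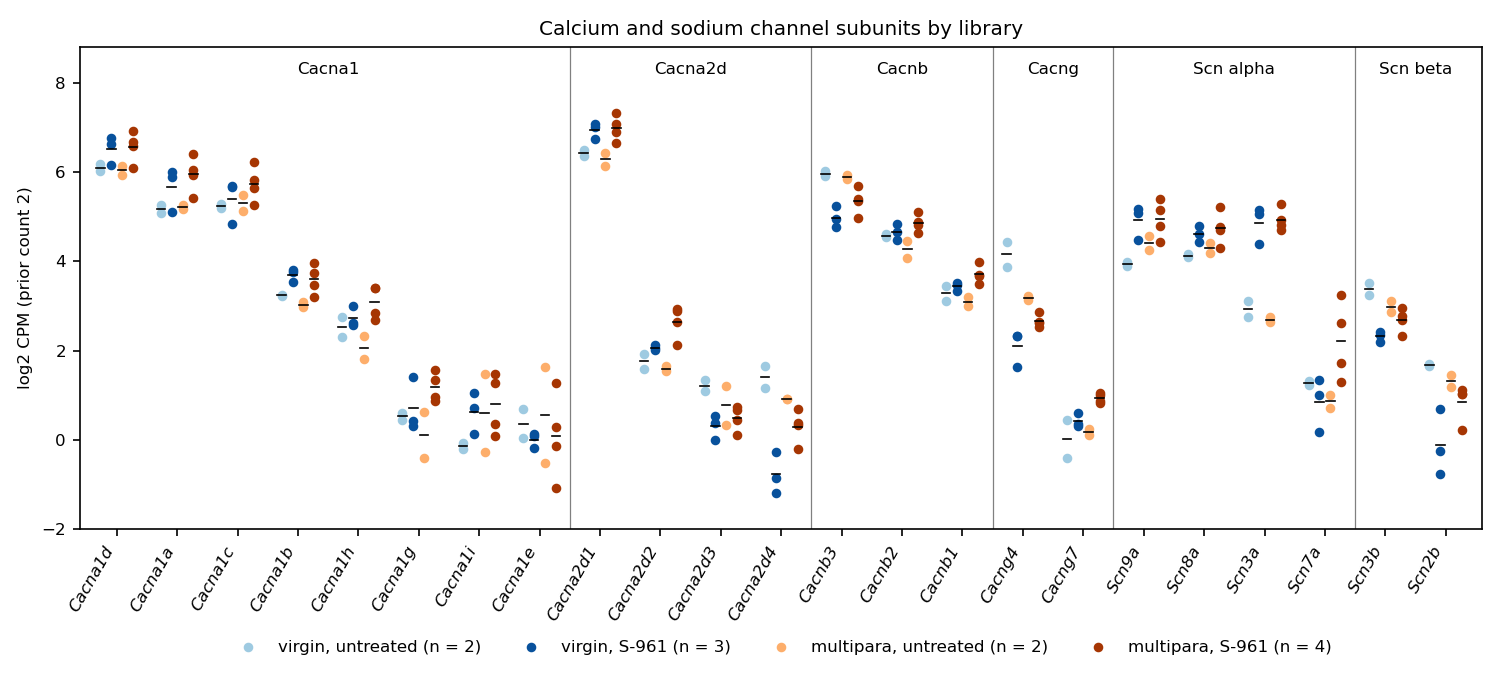
Log2 CPM (prior count 2) of the 23 members drawn in each of 11 libraries, by family. Points are libraries coloured by group and short lines are group means. For *Scn3a* the S-961 libraries, 20.9 to 39.1 CPM, lie above all untreated libraries, 6.16 to 8.51 CPM, and for *Cacng4* the virgin untreated libraries, 14.5 and 21.6 CPM, lie above all others.

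After S-961, *Scn3a* rose and *Cacnb3* fell in both parity groups. In virgin islets *Scn3a* and *Scn9a* rose, and members including *Cacng4*, *Cacna2d4*, *Scn2b*, *Scn3b* and *Cacnb3* fell. In multipara islets *Scn3a*, *Scn7a*, *Cacna2d2*, *Cacna1h*, *Cacna2d1*, *Cacnb1*, *Cacnb2* and *Cacna1b* rose and *Cacnb3* fell. With edgeR's quasi-likelihood test and an adjusted p under 0.05 over all genes, 8 of 35 members tested passed in virgin islets (22.9%, 2 higher and 6 lower) and 9 of 35 in multipara islets (25.7%, 8 higher and 1 lower). Of all 17996 genes tested, 36.5% passed in virgin (18.8% higher and 17.6% lower) and 37.6% in multipara islets (18.2% higher and 19.4% lower), against which the members' shares are read. The median log2 fold change of the members tested was 0.20 in virgin and 0.57 in multipara islets, against -0.04 and 0.03 over all genes. Most members are long, and all genes with exon lengths above 12 kb had medians of 0.46 and 0.52. The members' medians are thus not read as a shift apart from gene length. The difference between the groups is taken up after the families. Leaving out 1 library moved the counts. The virgin count fell to 5 without virgin untreated 1 and to 4 without virgin untreated 2. The multipara count was 2 without multipara untreated 1, 3 without multipara untreated 2, 12 without multipara S-961 2, 6 without virgin S-961 1, virgin untreated 1 or virgin untreated 2, and 7 without multipara S-961 4. Other settings moved them both ways. In a fit of the virgin libraries alone 12 members passed, with *Cacna1b*, *Cacna2d1*, *Cacna2d3* and *Scn8a* in addition, whereas in a fit of the multipara libraries alone 2 passed, *Scn3a* and *Cacna2d2*. With the replicate block 7 passed in virgin islets, without *Scn9a*, and 4 in multipara islets, *Cacna1h*, *Cacna2d2*, *Cacnb1* and *Scn3a*. DESeq2 called 9 members in virgin islets, with *Cacna2d1* in addition, and 11 in multipara islets, with *Cacna1a* and *Cacna1d* in addition. With no filter on low counts 8 passed in virgin islets, *Cacna2d1* among them, and 10 in multipara islets, with *Cacna1a* and *Cacna1d* gained and *Cacnb3* lost.

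**Figure D3:**
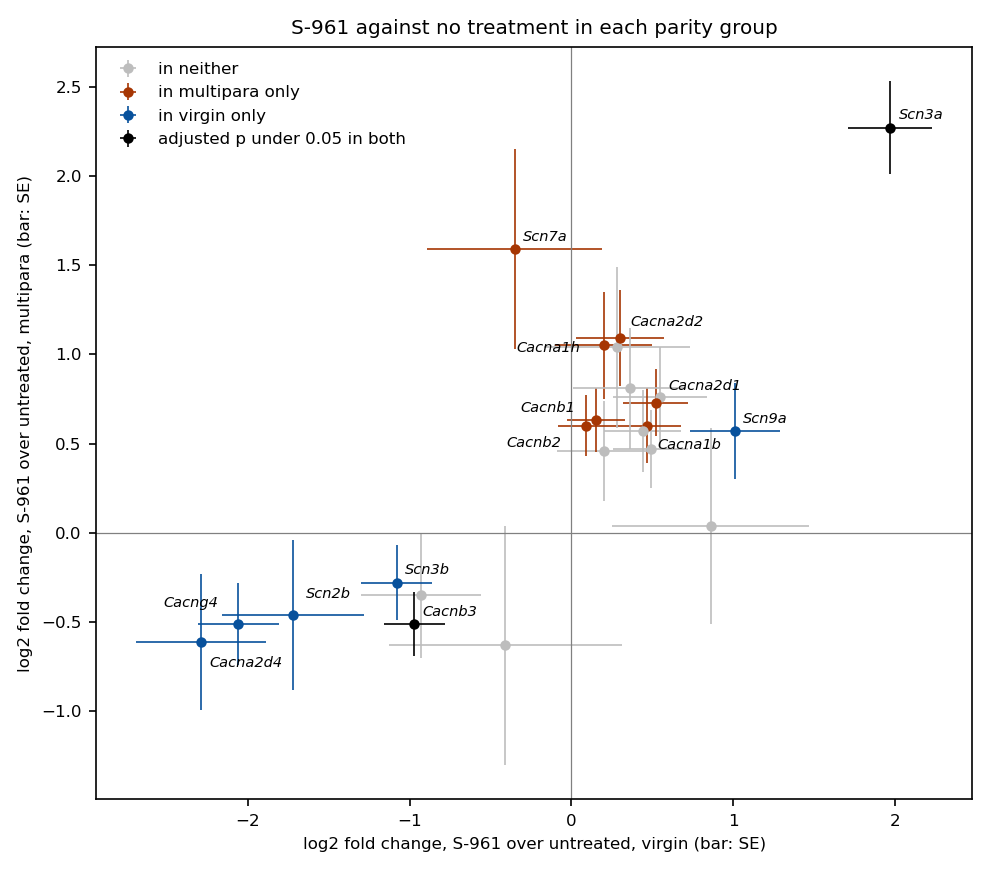
Log2 fold change of S-961 over untreated in virgin (horizontal) and multipara islets (vertical) for the 23 members drawn, with lines of 1 SE. Black marks members past an adjusted p of 0.05 in both groups (*Scn3a* at 1.97 and 2.27, *Cacnb3* at -0.97 and -0.51), blue in virgin alone, orange in multipara alone and grey in neither.

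Fold changes with S-961 depended on gene length across the transcriptome. The median log2 fold change of all genes tested rose from -0.95 in virgin and -1.04 in multipara islets for exon lengths up to 1 kb to 0.46 and 0.52 for lengths above 12 kb. Most members are long, so fold changes are read beside the median of all genes in the same length class. In virgin and multipara islets this median was 0.46 and 0.52 above 12 kb (*Cacna1c*, *Cacna1d*, *Cacna1e*, *Cacna2d1*, *Cacnb2*, *Scn3a*, *Scn8a* and *Scn9a*), and 0.30 and 0.37 from 9 to 12 kb (*Cacna1a*, *Cacna1b*, *Cacna1g*, *Cacna1h*, *Cacna1i* and *Cacna2d4*). It was 0.19 and 0.25 from 6 to 9 kb (*Cacna2d2*, *Cacna2d3* and *Scn7a*), 0.05 and 0.10 from 4 to 6 kb (*Cacnb1*, *Cacnb3*, *Scn2b* and *Scn3b*) and -0.13 and -0.11 from 2 to 4 kb (*Cacng4* and *Cacng7*). The trend was much smaller between parity groups, where class medians lay between -0.03 and 0.11. From the shortest to the longest class they ran from -0.03 to 0.02 with S-961 and from 0.11 to 0.0 without treatment. The trend with S-961 also differed between libraries of a group. Genes above 12 kb deviated from their mean over libraries by a median of -0.10 in virgin S-961 3 and -0.12 in multipara S-961 2, against 0.26 to 0.34 in the other S-961 libraries and -0.32 to -0.29 in untreated ones. Preparation dates of the libraries were not given in the sources used here, and the part of this trend in the results was not tested beyond a fit with a length offset for each library, which was added after seeing the data. With that offset 8 members passed in virgin islets, *Cacna2d3* being gained, and 5 in multipara islets, where *Cacna1b*, *Cacna1h*, *Cacna2d1*, *Cacnb2* and *Scn7a* were lost and *Cacng7* was gained.

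**Figure D4:**
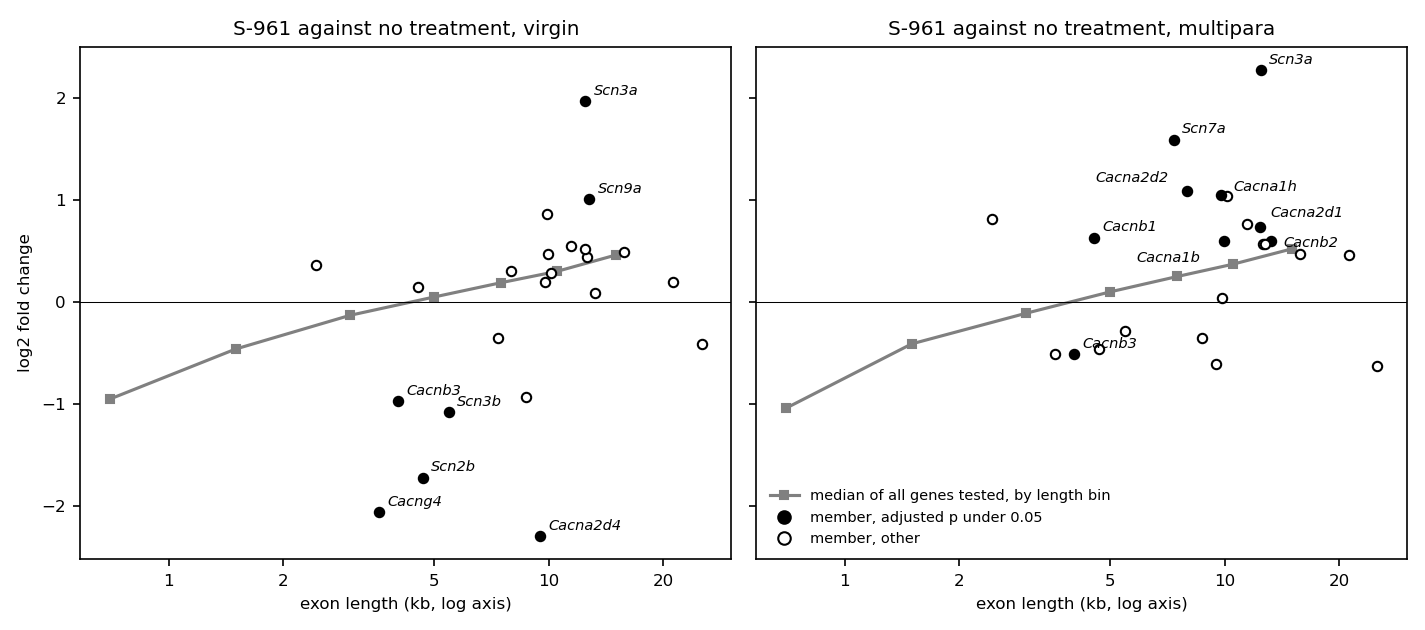
Log2 fold change of S-961 over untreated against exon length (log axis) in virgin (left) and multipara islets (right). Circles are the 23 members drawn, filled where the adjusted p was under 0.05, and grey squares are medians of all genes tested by length class. The grey line rises with length from -0.95 and -1.04 to 0.46 and 0.52, *Scn3a* lies above it in both panels and *Cacnb3* below it in both.

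The 3 windows shown here, upstream of members that passed, differed in base composition. RefSeq windows of 250 bases before an annotated start (build GRCm38.p6) were matched by symbol for 30 of 40 members. Windows of 3 members that passed with S-961 and lie outside GENCODE exons are shown, 1 that fell in both parity groups, 1 that rose in virgin and 1 that rose in multipara islets. Capitals mark CCAAT (or its reverse ATTGG) and the GC box GGGCGG (or CCGCCC), searched on both strands. The *Cacnb3* window lies at chr15:98632078-98632327 on the plus strand inside the gene, between exons of longer transcripts. The *Cacna1b* window at chr2:24763153-24763402 and the *Scn9a* window at chr2:66634963-66635212 lie on the minus strand next to the first base of the gene.
Cacnb3: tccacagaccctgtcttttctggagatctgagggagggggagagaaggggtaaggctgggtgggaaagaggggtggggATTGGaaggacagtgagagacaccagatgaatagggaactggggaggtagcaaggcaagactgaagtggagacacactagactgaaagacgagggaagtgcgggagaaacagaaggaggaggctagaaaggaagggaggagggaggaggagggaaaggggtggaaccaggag
Cacna1b: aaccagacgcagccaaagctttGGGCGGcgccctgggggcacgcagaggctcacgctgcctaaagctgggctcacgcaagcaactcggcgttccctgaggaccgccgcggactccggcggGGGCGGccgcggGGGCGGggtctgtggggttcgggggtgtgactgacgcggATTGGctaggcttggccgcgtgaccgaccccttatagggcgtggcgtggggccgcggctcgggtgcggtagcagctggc
Scn9a: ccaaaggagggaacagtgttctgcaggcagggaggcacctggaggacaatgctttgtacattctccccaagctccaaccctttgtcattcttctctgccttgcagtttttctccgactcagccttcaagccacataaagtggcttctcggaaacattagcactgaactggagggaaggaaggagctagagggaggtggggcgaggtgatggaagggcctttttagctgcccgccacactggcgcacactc
The *Cacna1b* window held 29 CpG pairs, 3 GC boxes and 1 CCAAT box, the *Cacnb3* window 2 CpG pairs and 1 CCAAT box, and the *Scn9a* window 5 CpG pairs and neither motif. Over 32851 windows of the same table the median was 6 CpG pairs, 32.7% held a GC box and 33.8% a CCAAT box. A TATA box (letters TATAAA) occurs in 12.4% of all windows, an E-box (letters CACGTG) in 6.02% and a cyclic AMP response element (letters TGACGTCA) in 1.55%, and none of these was in the 3 windows shown. A second annotated start of *Cacnb3* had a window with 23 CpG pairs, of which 51 bases were exonic, and its letters are not shown. Windows outside exons of *Cacna2d1* and *Cacnb1*, which also passed, held 36 and 1 CpG pairs and are not shown either.

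Among calcium channel pores, *Cacna1d* (chromosome 14, 30039939 to 30491455, GRCm38) was at 64.6 and 72.2 CPM in the virgin untreated libraries, 98.5, 108.6 and 70.9 in virgin S-961, 60.7 and 70.2 in multipara untreated and 102.3, 67.8, 121.2 and 96.2 in multipara S-961. Virgin S-961 3 and multipara S-961 2 lay within the untreated range of their parity group and the other S-961 libraries above it, and the log2 fold change was 0.44 ± 0.24 (SE, adjusted p = 0.173) in virgin and 0.57 ± 0.23 (adjusted p = 0.072) in multipara islets. Genes of the same length had medians of 0.46 and 0.52, near the values of *Cacna1d*. The multipara value passed by DESeq2 (0.56, adjusted p = 0.0414), with no filter (0.61, adjusted p = 0.0331) and without multipara S-961 2 (0.74, adjusted p = 0.0111). *Cacna1c* (chromosome 6, 118587240 to 119196418) was at 36.4 and 39.1 CPM in virgin untreated, 51.1, 50.5 and 28.5 in virgin S-961, 34.7 and 45.0 in multipara untreated and 57.0, 37.9, 74.3 and 50.0 in multipara S-961 libraries. The groups overlapped in both parity groups, with log2 fold changes of 0.20 ± 0.29 (adjusted p = 0.625) and 0.46 ± 0.28 (adjusted p = 0.218). The 95% intervals, -0.45 to 0.85 and -0.16 to 1.08, leave room for changes of either sign.

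*Cacna1a*, the P/Q-type pore, was at 33.6 and 38.1 CPM in virgin untreated and 59.0, 63.8 and 34.4 in virgin S-961 libraries, and at 36.1 and 38.6 and 66.0, 42.4, 84.3 and 61.3 in the multipara groups. All 4 multipara S-961 libraries lay above the untreated ones, but the test was missed at 0.76 ± 0.28 (adjusted p = 0.0529), while the virgin value was 0.55 ± 0.29 (adjusted p = 0.165). It passed in multipara islets by DESeq2 (0.75, adjusted p = 0.0191), with no filter (0.81, adjusted p = 0.0153) and without multipara S-961 2 (0.95, adjusted p = 0.012) or virgin S-961 3 (0.76, adjusted p = 0.0257) and in virgin islets without virgin S-961 3 (0.78, adjusted p = 0.0399). *Cacna1b*, the N-type pore, was at 7.77 and 8.38 CPM in multipara untreated and 11, 9.17, 15.4 and 13.3 in multipara S-961 libraries, without overlap. It rose by 0.60 ± 0.21 on the log2 scale (adjusted p = 0.0417), and the call was lost when any of 9 libraries was left out, all but virgin S-961 3 and multipara S-961 2 (0.47 to 0.66, adjusted p = 0.0513 to 0.201). Virgin libraries read 9.34 and 9.39 CPM untreated and 13.4, 13.9 and 11.5 with S-961, also without overlap, at 0.47 ± 0.21 (adjusted p = 0.108, or 0.0447 without multipara S-961 2 and 0.0156 in a fit of the virgin libraries alone).

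*Cacna1h*, a T-type pore that opens at low voltage, had the larger rise of the 2 pores that passed in multipara islets. It was at 4.91 and 3.4 CPM untreated and 10.6, 7.07, 10.6 and 6.33 with S-961, a log2 fold change of 1.05 ± 0.30 (adjusted p = 0.0179) beside 0.37 for genes of its length. The lowest of the 4 S-961 values was that of multipara S-961 4. Without multipara untreated 2 the value was 0.82 (adjusted p = 0.138), and with the length offset 0.67 (adjusted p = 0.0721). In virgin islets the libraries overlapped, at 4.86 and 6.69 and 6.09, 7.91 and 5.92 CPM, with 0.20 ± 0.30 (adjusted p = 0.627). The T-type pores *Cacna1g* and *Cacna1i* and the R-type pore *Cacna1e* ran from 0.41 to 3.04 CPM over all libraries. Their log2 fold changes ran from -0.41 to 0.86 in virgin and from -0.63 to 1.04 in multipara islets, and none passed the test.

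Among α2δ subunits, *Cacna2d1*, the most abundant of them and the target of gabapentin, was at 69.8 and 86.1 CPM in multipara untreated and 119.7, 99.8, 161.2 and 134.5 in multipara S-961 libraries, and at 90.1 and 81.5 and 128.7, 134.8 and 106.5 CPM in the virgin groups. No S-961 library fell into the untreated range of its parity group. It rose in multipara islets by 0.73 ± 0.19 (adjusted p = 0.0135) and read 0.52 ± 0.20 (adjusted p = 0.0604) in virgin islets, beside 0.52 and 0.46 for genes of its length. With the length offset the multipara value was 0.23 (adjusted p = 0.179), and without multipara untreated 1 it was 0.58 (adjusted p = 0.13). The virgin value passed by DESeq2 (0.55, adjusted p = 0.0248), with no filter (0.54, adjusted p = 0.0475), in a fit of the virgin libraries alone (0.55, adjusted p = 0.00729) and without virgin S-961 3 (0.62, adjusted p = 0.0465), multipara S-961 2 (0.55, adjusted p = 0.0241) or multipara S-961 3 (0.52, adjusted p = 0.0241). *Cacna2d2*, the other gabapentin-binding member, was at 3.08 and 2.84 CPM in multipara untreated and 7.32, 6.14, 7.54 and 4.32 in multipara S-961 libraries. All treated values lay above the untreated ones, multipara S-961 4 lowest, and the rise was 1.09 ± 0.27 (adjusted p = 0.00929), or 0.84 with the length offset (adjusted p = 0.0281). It missed the threshold without multipara untreated 1 (1.16, adjusted p = 0.0507) or 2 (1.04, adjusted p = 0.0608). In virgin islets it was at 2.95 and 3.75 CPM untreated and 3.99, 4.28 and 4.08 with S-961 (0.30 ± 0.27, adjusted p = 0.418).

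*Cacna2d4*, known from photoreceptors, showed the largest fall of the members with a mean of at least 1 CPM in virgin islets. It was at 2.18 and 3.1 CPM untreated and 0.37, 0.75 and 0.49 with S-961, a log2 fold change of -2.29 ± 0.40 (adjusted p = 0.00169) that passed in 18 of 18 alternatives. Multipara libraries were at 1.83 and 1.83 and 1.55, 1.19, 1.24 and 0.8 CPM, with -0.61 ± 0.38 (adjusted p = 0.217), the lowest value again in multipara S-961 4. *Cacna2d3* was at 2.07 and 2.46 CPM in virgin untreated and 0.93, 1.24 and 1.39 in virgin S-961 libraries, without overlap, at -0.93 ± 0.37 (adjusted p = 0.0687). It read -0.35 ± 0.35 (adjusted p = 0.447) in multipara islets.

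Among cytosolic β subunits, *Cacnb3* (chromosome 15, 98630840 to 98644529), the most abundant member per length, fell with S-961 in both parity groups. It was at 59.6 and 65.3 CPM in virgin untreated and 30.6, 37.5 and 27.2 in virgin S-961 libraries, and at 57.5 and 60.9 in multipara untreated and 40.9, 42.1, 51.7 and 31.3 in multipara S-961 libraries. Treated and untreated values did not overlap in either group. The log2 fold change was -0.97 ± 0.19 in virgin (adjusted p = 0.00298) and -0.51 ± 0.18 in multipara islets (adjusted p = 0.0456), beside 0.05 and 0.10 for genes of its length. The virgin call was kept in 18 of 18 alternatives. The multipara call was lost when any of 8 libraries was left out, all but virgin S-961 2 and 3 and multipara S-961 3 (-0.55 to -0.40, adjusted p = 0.0634 to 0.189).

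*Cacnb2* and *Cacnb1* rose in multipara islets. *Cacnb2* was at 16.8 and 21.9 CPM untreated and 29.6, 24.8, 34.2 and 28.1 with S-961 (0.60 ± 0.17, adjusted p = 0.0171). *Cacnb1*, the β subunit of skeletal muscle that is also present in other tissues, was at 9.07 and 7.88 CPM untreated and 12.6, 12.8, 15.9 and 11.2 with S-961 (0.63 ± 0.18, adjusted p = 0.0182). Neither gene overlapped between treated and untreated multipara libraries. Genes of the length of *Cacnb2* had a median of 0.52 and those of the length of *Cacnb1* 0.10, and with the length offset *Cacnb2* read 0.11 (adjusted p = 0.521) and *Cacnb1* 0.60 (adjusted p = 0.0216). Without multipara untreated 1, *Cacnb2* read 0.41 (adjusted p = 0.183) and *Cacnb1* 0.74 (adjusted p = 0.0591), and *Cacnb1* was also lost without multipara untreated 2 (0.54, adjusted p = 0.128). In virgin islets *Cacnb2* was at 24.1 and 23.3 and 25.1, 28.6 and 22.3 CPM and *Cacnb1* at 8.65 and 10.8 and 10, 11.4 and 11 CPM, untreated and treated. The virgin fold changes were 0.09 ± 0.17 (adjusted p = 0.699) and 0.15 ± 0.18 (adjusted p = 0.555).

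Among γ subunits, *Cacng4* (chromosome 11, 107732357 to 107794557), a TARP gene, was at 14.5 and 21.6 CPM in virgin untreated, 3.06, 4.95 and 4.95 in virgin S-961, 8.71 and 9.27 in multipara untreated and 6.02, 6.23, 7.23 and 5.7 in multipara S-961 libraries. Virgin untreated islets thus stood highest and virgin S-961 islets lowest, with both multipara groups between them. The virgin log2 fold change was -2.06 ± 0.25 (adjusted p = 0.000278, called in 18 of 18 alternatives), beside -0.13 for genes of its length, and the multipara value was -0.51 ± 0.23 (adjusted p = 0.105). The α cell marker sums given above had the same order of groups, and 5 of 6 α cell and 3 of 4 δ cell markers fell in virgin islets with S-961, whereas 1 of 6 and 1 of 4 fell and 2 of 6 and 1 of 4 rose in multipara islets. No marker of either list was at 0 in any library. Their part in the result was not tested. *Cacng7* was at 0.69 and 1.29 and 1.21, 1.45 and 1.16 CPM in virgin and 1.12 and 1.01 and 1.95, 1.77, 2.01 and 1.71 CPM in multipara islets, untreated and treated, and passed in neither (0.36 ± 0.35, adjusted p = 0.442, and 0.81 ± 0.34, adjusted p = 0.082).

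Among sodium channel pores, *Scn3a* (chromosome 2, 65457118 to 65567627), a channel of the developing brain that islet cells also express, had the largest rise of the members with a mean of at least 1 CPM in both parity groups. It was at 6.66 and 8.51 CPM in virgin untreated and 33.1, 35.2 and 20.9 in virgin S-961 libraries. Multipara libraries were at 6.16 and 6.68 CPM untreated and 39.1, 26.0, 28.0 and 30.2 with S-961. The lowest of the 7 treated values was more than 2-fold above the highest untreated one. The log2 fold changes were 1.97 ± 0.26 (adjusted p = 0.000414) and 2.27 ± 0.26 (adjusted p = 0.000195), that is 3.92-fold and 4.81-fold. Both calls were kept in 18 of 18 alternatives, with a range of 1.51 to 2.17 in virgin and 1.78 to 2.43 in multipara islets, and genes of its length had medians of 0.46 and 0.52. *Scn3a* had non-whole estimated counts in 8 libraries, so some of its reads were shared with other genes.

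*Scn9a*, a channel known for pain signalling, was at 15.8 and 14.9 CPM in virgin untreated and 36.3, 34.0 and 22.2 in virgin S-961 libraries. It rose by 1.01 ± 0.28 (adjusted p = 0.0176), or 0.55 with the length offset (adjusted p = 0.0358), and the call was lost without virgin S-961 1 (0.88, adjusted p = 0.0592) or 2 (0.93, adjusted p = 0.0523) and without virgin untreated 1 (1.05, adjusted p = 0.0858) or 2 (0.96, adjusted p = 0.116). Multipara libraries were at 19.1 and 23.4 CPM untreated and 27.3, 21.6, 41.8 and 35.1 with S-961, where multipara S-961 2 lay within the untreated range, and the change was 0.57 ± 0.27 (adjusted p = 0.116, or 0.0288 without that library). *Scn8a*, a channel of axon initial segments, was at 16.9 and 17.8 and 24.2, 27.3 and 21.6 CPM in virgin and 18.2 and 21.2 and 27.1, 19.4, 36.8 and 25.7 CPM in multipara islets. Its values, 0.49 ± 0.23 (adjusted p = 0.116) and 0.47 ± 0.22 (adjusted p = 0.11), were near those of genes of its length, 0.46 and 0.52. *Scn8a* passed in multipara islets without multipara S-961 2 (0.63, adjusted p = 0.0177) and in virgin islets without multipara S-961 2 (0.51, adjusted p = 0.0408) or 3 (0.49, adjusted p = 0.0375) and in a fit of the virgin libraries alone (0.51, adjusted p = 0.0102).

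*Scn7a*, which codes for a sodium-sensing channel of glia and other cells that is not opened by voltage, varied widely between the multipara S-961 libraries. It was at 1.56 and 1.95 CPM in multipara untreated and 6.02, 3.26, 9.45 and 2.39 in multipara S-961 libraries, multipara S-961 4 being lowest, and at 2.41 and 2.26 and 1.95, 2.47 and 1.07 CPM in the virgin groups. The multipara rise was 1.59 ± 0.56 (adjusted p = 0.0441), lost when any of 8 libraries was left out, all but virgin S-961 3 and multipara S-961 2 and 4 (1.15 to 1.76, adjusted p = 0.0512 to 0.208). The virgin value was -0.35 ± 0.54 (adjusted p = 0.647). Stromal marker sums in the multipara S-961 libraries lay above those of all others, and glial and neuronal sums did so only in multipara S-961 3. Stromal markers summed to 135.2, 124.4, 239.2 and 114.2 CPM in multipara S-961 1 to 4 and 69.8 to 95.2 CPM elsewhere, and glial and neuronal markers to 43.9, 42.8, 67.8 and 47.2 CPM against 33.1 to 47.8 CPM elsewhere, with none of the 8 glial and neuronal markers at 0. Their part in the result was not tested.

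The sodium channel β subunits *Scn3b* and *Scn2b* fell with S-961 in virgin islets. *Scn3b* was at 9.41 and 11.4 CPM untreated and 5.29, 4.98 and 4.53 with S-961 (-1.08 ± 0.22, adjusted p = 0.00327). *Scn2b* was at 3.18 and 3.1 CPM untreated and 0.53, 1.54 and 0.78 with S-961 (-1.72 ± 0.44, adjusted p = 0.0113). No treated virgin value reached an untreated one for either gene, and genes of their length had a median of 0.05. *Scn2b* was lost without virgin untreated 1 (-1.70, adjusted p = 0.0603) or 2 (-1.74, adjusted p = 0.0603), and *Scn3b* without virgin untreated 2 (-0.93, adjusted p = 0.0505).

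In multipara islets neither passed. *Scn3b* was at 7.19 and 8.51 CPM untreated and 7.73, 6.75, 6.36 and 4.97 with S-961 (-0.28 ± 0.21, adjusted p = 0.3), and *Scn2b* at 2.68 and 2.21 and 2.09, 1.98, 1.96 and 1.09 CPM (-0.46 ± 0.42, adjusted p = 0.406). Multipara S-961 4 had the lowest treated value of both.

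Whether S-961 acted differently in multipara and virgin islets was tested by the interaction. With edgeR 0 of 35 members and 0 of 17996 genes passed (0.0%), while 5 members and 1179 genes had an unadjusted p under 0.05. The 5 were *Cacng4* (1.55 ± 0.34, adjusted p = 0.409), *Cacna2d4* (1.67 ± 0.56, adjusted p = 0.674), *Scn3b* (0.80 ± 0.30, adjusted p = 0.714), *Scn7a* (1.94 ± 0.76, adjusted p = 0.721) and the low-count *Scn4a* (-3.04 ± 1.31, adjusted p = 0.758). A positive value means a higher fold change with S-961 in multipara than in virgin islets. With the replicate block edgeR called 34 genes and 0 members, and DESeq2 called *Cacng4* (1.52, adjusted p = 0.0232) among 87 genes. The estimate was positive for 28 of 35 members with a median of 0.46, against -0.04 over all genes. Marker medians were 1.01 for α cell, 0.96 for δ cell, 0.64 for PP cell and 0.64 for duct genes. Stromal genes had 0.68, glial and neuronal genes 1.68 and proliferation genes 1.74. Medians were 0.06 for acinar, -0.02 for endothelial, -0.18 for β cell, -0.39 for skeletal muscle and -1.21 for leukocyte genes. The part of these markers in the result was not tested. Without multipara S-961 4, 45 genes and 0 members passed, 9 members had an unadjusted p under 0.05, and 29 of 35 estimates were positive with a median of 0.48. *Cacng4* then read 1.60 (adjusted p = 0.11), *Cacna2d4* 1.82 (adjusted p = 0.21), *Scn3b* 0.90 (adjusted p = 0.222) and *Scn7a* 2.18 (adjusted p = 0.241). Calls made in 1 parity group alone are thus not shown to differ between the groups, except for *Cacng4* by DESeq2. For *Scn3a* the interaction was 0.29 with a 95% interval of -0.45 to 1.04, and for *Cacnb3* 0.46 (-0.13 to 1.05).

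Multipara against virgin islets under S-961 compared levels in the treated libraries, which hold any difference between the parity groups that is present without treatment. With edgeR 0 of 31 members tested and 0 of 16784 genes passed (0.0%). DESeq2 called 348 genes and edgeR with the replicate block 342, with 0 members in either. In the main edgeR fit 4 members and 1630 genes had an unadjusted p under 0.05. The 4 were *Scn7a* (1.56 ± 0.51, adjusted p = 0.365), *Cacna2d4* (1.16 ± 0.40, adjusted p = 0.385), *Cacna2d2* (0.64 ± 0.24, adjusted p = 0.425) and *Cacng4* (0.56 ± 0.23, adjusted p = 0.486), each higher in multipara islets. For 5 of 31 members (16.1%, *Cacna2d2*, *Cacna2d4*, *Cacng4* and *Cacng7* among them) all 4 multipara libraries lay above all 3 virgin ones, against 5.23% of all genes, and for 0 members all lay below, against 3.64%. Estimates were positive for 30 of 31 members with a median of 0.40, against 0.0 over all genes. The study reports gene sets of voltage-gated cation channels as raised in this comparison by gene set enrichment, which was not run here. Marker medians in the same comparison were 0.50 for α cell, 0.38 for δ cell, 0.51 for PP cell and 1.02 for acinar genes. Duct genes had 1.11, stromal genes 0.50, glial and neuronal genes 1.05 and proliferation genes 3.6. Medians were -0.07 for β cell, -0.09 for endothelial, -0.04 for leukocyte and -0.06 for skeletal muscle genes. None of these markers passed the test. Their part in the members' shift was not tested. Without multipara S-961 4 edgeR called 525 genes and 0 members, 9 members had an unadjusted p under 0.05, and 30 of 31 estimates were positive with a median of 0.42. *Scn7a* then read 1.80 (adjusted p = 0.0799), *Cacna2d4* 1.32 (adjusted p = 0.14), *Cacna2d2* 0.79 (adjusted p = 0.0683) and *Cacng4* 0.61 (adjusted p = 0.258). The 3 remaining multipara libraries lay above all virgin ones for 11 of 31 members (35.5%), against 13.7% of all genes, and below them for 0, against 10.9%. Estimates for the main pores were *Cacna1d* 0.08 (95% interval -0.40 to 0.57), *Cacna1c* 0.36 (-0.23 to 0.95) and *Scn3a* 0.07 (-0.38 to 0.53), whose intervals do not show the groups to be alike.

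Without treatment, multipara and virgin islets were compared on 2 libraries each. With edgeR 0 of 28 members and 0 of 15812 genes passed (0.0%), 2 members and 889 genes had an unadjusted p under 0.05, and DESeq2 called 54 genes with 0 members. The 2 were *Cacng4*, at 8.71 and 9.27 CPM in multipara and 14.5 and 21.6 in virgin islets (-1.0 ± 0.23, adjusted p = 0.719), and *Scn9a*, at 19.1 and 23.4 and 15.8 and 14.9 CPM (0.47 ± 0.13, adjusted p = 0.719). Both groups of values were without overlap. Of 28 members, 3 (10.7%; *Cacnb4*, *Scn8a* and *Scn9a*) were above in both multipara libraries, against 17.3% of all genes, and 9 (32.1%, *Cacna1b*, *Cacna2d4*, *Cacnb2*, *Cacng2*, *Cacng4*, *Scn2b*, *Scn3b* and *Scn7a* among them) were below in both, against 18.8%. The median was -0.18 for members and 0.02 for all genes. Marker medians were -0.60 for α cell, -0.68 for δ cell and -0.58 for glial and neuronal genes, against 0.12 for β cell, 0.92 for acinar and 1.51 for leukocyte genes, and their part in the result was not tested. Multipara untreated 1 had a leukocyte marker sum of 811.1 CPM against 97.8 to 124.6 CPM in the other untreated libraries, and values of 94.2 against 7.38 to 17.6 CPM for proliferation genes. Without multipara untreated 2, which leaves that library alone in its group, 4 members passed (*Cacng4* at -1.04, *Cacnb2* at -0.49, *Cacna1i* at 1.70, and *Cacna1s*) among 1738 genes, and without multipara untreated 1 the count was 0. These libraries are also the untreated arms of S-961 against no treatment and of the interaction, so the values are not independent of those.

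**Figure D5:**
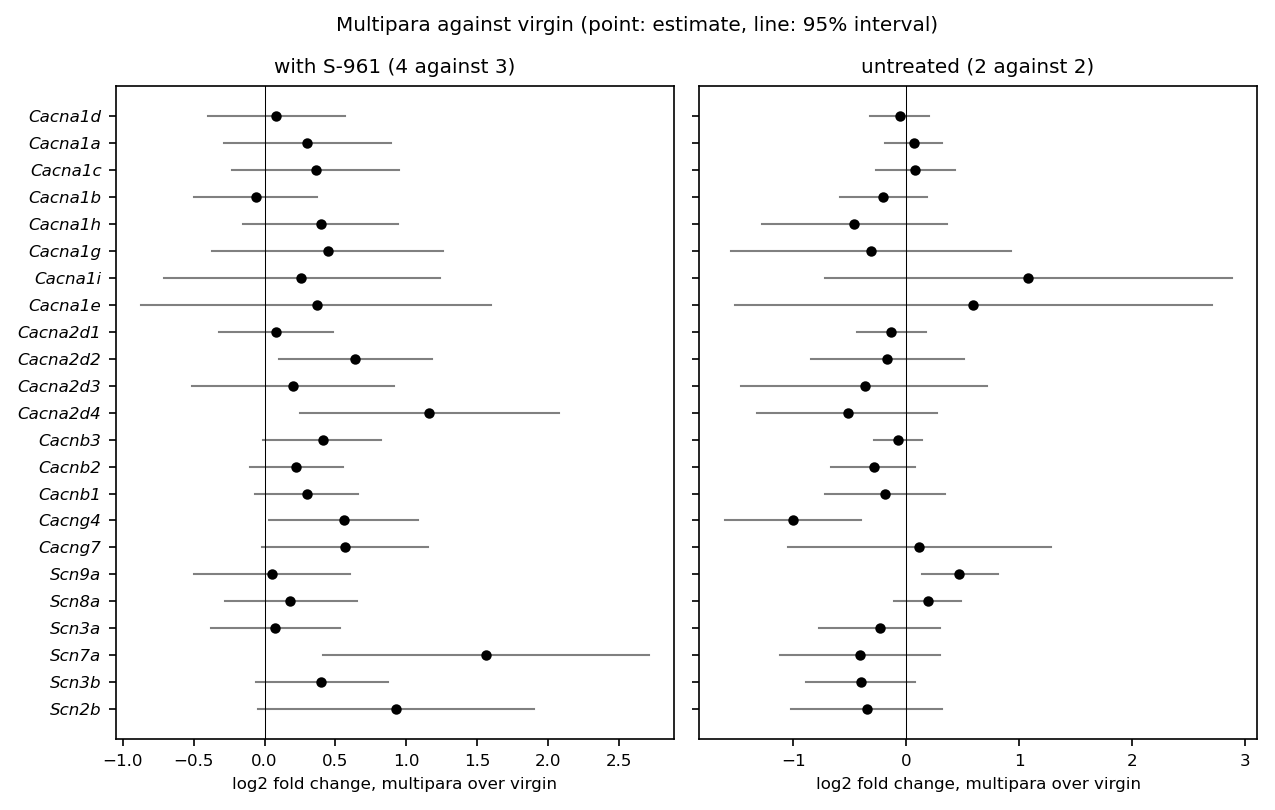
Log2 fold change of multipara over virgin islets for the 23 members drawn, with S-961 (left, 4 against 3 libraries) and untreated (right, 2 against 2). Points are estimates and lines 95% intervals. None passed an adjusted p of 0.05, with *Scn7a* at 1.56 the largest on the left and *Cacng4* at -1.0 the lowest on the right.

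Genes that act with these channels in excitation and secretion were counted over 8 lists of 95 genes. Of 94 tested with S-961, 21 rose and 18 fell in virgin and 21 rose and 8 fell in multipara islets, which is 41.5% and 30.9% against 36.5% and 37.6% of all genes, and 0 passed with parity or in the interaction. These shares are near those of all genes, so the members of the lists are given as values and not as a result about the lists. The values in this and the next paragraph are not set beside genes of the same length. The part of the length trend in them was not tested. In the list of K-ATP channel and glucose entry, 2 of 4 genes were lower and none higher in each parity group. Among potassium channels 3 of 8 rose in virgin and 2 of 8 in multipara islets, including *Kcnn3*, a calcium-activated channel (2.12 and 1.97), and *Kcnh6* (0.79 and 1.42). Among other inward cation channels, *Trpm5* (-1.46 and -2.08) and *Trpm4* (-1.14 and -1.07), cation channels opened by calcium, fell in both groups, and 4 of 14 rose in virgin and 3 of 14 in multipara islets. Of 15 calcium pumps and exchangers, 4 rose in virgin and 6 in multipara islets, among them the plasma membrane pump *Atp2b1* (0.91 and 1.01), and *Micu2*, which gates mitochondrial calcium uptake, fell (-0.61 and -0.70).

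Regulators and release machinery moved in both directions. Of 19 calcium channel regulators 6 rose and 3 fell in virgin and 5 rose and none fell in multipara islets, with *Camk2g* (0.47 and 0.69) higher in both. *Stac*, which binds L-type channels, fell in virgin islets (-3.40), from 1.34 and 1.57 CPM to 0.09, 0.24 and 0.06 CPM. Of 7 sodium channel regulators 3 fell in virgin and 1 rose in multipara islets. Of 11 genes of store release and store-operated entry 1 rose and 1 fell in virgin islets and none passed in multipara islets. Of 17 calcium sensors and fusion proteins 3 rose and 6 fell in virgin and 4 rose and 3 fell in multipara islets. In both parity groups *Unc13a* (1.31 and 1.25) and *Unc13b* (0.93 and 0.69), which prime vesicles, and *Syt4* (1.02 and 0.63) rose, and the fusion protein *Stx4a* (-1.14 and -1.13) fell.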

How the data were processed

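Poly(A) RNA of islets was made into 11 strand-specific libraries. The values deposited by the authors are estimated counts (expected counts) per gene and library that were not normalized. The submitters' processing notes name STAR, RSEM and the build GRCm38 (mm10). Versions were not given in the sources used here. RSEM divides reads that fit several genes, so 9 members had values that were not whole in some libraries. All values were rounded to whole counts.

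All 55536 gene identifiers matched GENCODE release M21, from which coordinates and exon length (the union of exons) were taken. Samples were grouped by their labels. Members are all genes with symbols of the stated families. Members and gene lists were chosen with earlier results of these data known. Members with a mean of at least 1 CPM were described singly. Some genes are counted in the totals but not reported here by name. From the pathway lists, genes among the 10 with the smallest adjusted p in a comparison could be named.

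Genes were filtered by filterByExpr with at least 10 counts and a total of 15, scaled by TMM and tested by the quasi-likelihood F-test of edgeR 4.0.16 (R 4.3.3). P-values were adjusted by Benjamini-Hochberg over all genes tested, with a threshold of 0.05. Adjusted p in the text is from this test unless DESeq2 is named, and SE is the log2 fold change divided by the root of its F value. Comparisons by parity were fitted on their own 7 or 4 libraries, and those of S-961 against no treatment and the interaction on all 11. CPM came from 1 TMM normalization of all 11 libraries. Of 40 members, 35 passed the filter on low counts in the fit of all libraries, 31 in the parity comparison with S-961 and 28 in that without. The fits were tested on simulated counts. Alternatives were relative log expression (RLE) size factors, no filter on low counts, DESeq2 1.42.0, a replicate block, leaving out *Ins1* and *Ins2*, another set of libraries in the fit, leaving out each library, and, added after seeing the data, an offset per library fitted to gene length in 20 bins. A direction was taken as reversed only where the main fit or the alternative called the gene. Summaries were computed in Python 3.11.15 with numpy 2.4.6 and pandas 2.3.3, and plots drawn by matplotlib 3.10.9.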

Additional observations from a re-analysis of the deposited data

Results flagged for a closer look

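In the 23 groups of 4 libraries that the members described singly give, 1 value lay far from the other 3 for 1 member, where chance marks about 1 in 20 groups. *Scn2b* was at 1.09 CPM in multipara S-961 4 and at 1.96 to 2.09 CPM in the other multipara S-961 libraries, so that the gap to the nearest value was 0.868 of the whole range. Multipara S-961 4 is the library that also stood apart from its group in proliferation genes.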

How the results depend on the processing

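Beside the main values, 1776 of the values of single members under an alternative kept their direction and their side of the threshold, 28 passed it newly and 68 no longer passed, and no called direction turned. In multipara islets with S-961 the count of 9 members became 4 with the replicate block, 5 with the length offset and 2 when the fit held the multipara libraries alone, and between 2 and 12 when each library was left out. In virgin islets the count of 8 lay between 4 and 10 when each library was left out and was 12 when the fit held the virgin libraries alone. For parity without treatment the count of 0 lay between 0 and 4, where leaving out a library leaves an arm with 1 sample that is assumed to vary like the other group. In the interaction DESeq2 called 1 member, *Cacng4*. The cause of these shifts was not tested, apart from the smaller number of samples when libraries were left out. *Scn3a* passed in all 18 alternatives in both parity groups, and *Cacna2d4*, *Cacnb3* and *Cacng4* in all 18 in virgin islets. Deviations of same-numbered samples of different groups had correlations of -0.15 to 0.28. The highest was between the untreated groups, where 2 libraries per group mirror each other. These values do not settle whether the numbers pair the samples. The fit with the replicate block called 7 members with S-961 in virgin islets and 0 members for parity with or without S-961 and for the interaction. Over all genes it called 342 for parity with S-961 and 34 for the interaction, against 0 and 0 in the main fit. Multipara S-961 4 was alone in its block in that fit. Depth limits the 16 members with a mean under 1 CPM, none of which exceeded 48 counts in a library.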
